A study of Mus musculus with 30 samples.

Results

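The genes of the proteasome were followed in cultures of the mouse's extraocular muscle, which moves the eye, at 0, 4, 12, 24 and 48 h. RNA was measured on a pair of Affymetrix array types, A and B, 30 arrays in all, 3 for each type and time. Members were all probe sets whose single platform gene symbol began with Psm, a letter from a to g and a number. They were 106 of 45265 probe sets and stood for 49 genes of 18194 named on the arrays, 48 of them on the A type, 16 on the B type and 15 on both. By their titles all groups were the same kind of culture and differed only in the time. The labels give no strain, age, treatment or event that started the clock. They also do not say whether replicate arrays held separate cultures, so p-values cover only the spread from array to array, and part of that may be technical. For replicate 1 of the B arrays at 0 h the title says extraocular muscle and the source name says leg muscle, and the title was followed.

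The proteasome is the protease of the cytosol and nucleus that degrades proteins marked with chains of ubiquitin. Its core particle is a barrel of stacked rings, in which the outer alpha rings (Psma genes) gate the entrance and the inner beta rings (Psmb genes) carry the peptidase sites. A regulatory particle caps the barrel, with ATPases of its base (Psmc genes) that unfold the substrate and non-ATPase subunits (most Psmd genes) that bind the ubiquitin chain and cut it off. Psme genes encode alternative activators, Psmf1 an inhibitor, and Psmg genes chaperones that assemble the core. In skeletal muscle this machine breaks down the proteins of the contractile apparatus, and its subunit genes are known to be induced together in wasting muscle.

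A probe set was tested where its mean intensity over the 15 arrays of its type reached the 40th percentile, which was 101 for A and 199.6 for B arrays. That left 71 of 85 member probe sets for 45 genes on the A arrays, and 13 of 21 for 11 genes on the B arrays. The core took 22 of the 71, the regulatory particle 33, and the activators, inhibitor and chaperones 14. The remaining 2, Psmc3ip, a factor of meiotic recombination, and Psme3ip1, share only the start of the name and are not subunits. Psme2, an activator subunit, was not used, since its probe set carries more than 1 symbol. Values are linear intensities as deposited, scaled by the authors to 1 trimmed mean per array type, so each change is relative to the array. Changes are log2 differences of intensity + 16 ± SE from limma, with p-values adjusted by the Benjamini-Hochberg method over all probe sets tested on that type. Error bars of intensities are SD with n = 3 arrays.

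The labelled muscle was visible in the arrays. On the A type 8 of 9 muscle marker genes were tested, and their summed intensity was 36269 to 40739 at 48 h and 33034 to 46187 at 0 h. Single genes did change: limma's test called 1 higher at each of 12, 24 and 48 h and 1 lower at 48 h. The median change of the tested muscle markers at 48 h was -0.16. The B type had 4 tested muscle and 2 tested fibroblast markers, of which none passed. Their median changes were -0.20 and -0.19 at 48 h, and -0.16 and -1.03 at 12 h. Of 16 leukocyte markers on the A arrays 12 lay below the filter, and the list summed to 913 to 1270 at 48 h and 968 to 1285 at 0 h. On the A arrays 5 of 6 fibroblast markers and 4 of 5 endothelial markers were also below the filter. The B arrays carried 3 leukocyte markers, which summed to 1137 to 1478 at 48 h and 137 to 628 at 0 h with no overlap, and the 2 that were tested had a median change of 1.73. One of them, Laptm5, read 1102, 467.5 and 1074 at 48 h and 61.7, 409.6 and 81 at 0 h, a change of 2.51 ± 0.67 with a limma adjusted p of 0.112. Its A array probe set changed by -0.32 ± 0.24 (limma adjusted p 0.5), and the part of these markers in the proteasome values was not tested.

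Few proteasome genes passed a test over the 48 h, and the changes that did pass were small. On the A arrays the mean at the highest time exceeded that at the lowest by a median log2 of 0.29 across the 71 members, by 0.38 across all 13577 probe sets tested and by 0.33 across the 3544 with a mean intensity of at least 1000. This span was under 0.5 for 63 of the 71 members (88.7%), for 69.5% of all probe sets tested and for 78.2% of the bright ones. No member reached a span of 1. In limma's F-test for any change over time 2 of 71 passed, Psma1 and Psmg3, where the background was 7.59% of all probe sets tested. At 4 h and at 12 h against 0 h no member passed limma's test, with backgrounds of 0.0295% and 0.368%. Of the 71 members 4 and 6 had an unadjusted limma p under 0.05. These shares were below the 6.02% and 12.8% of all probe sets tested. At 24 h 1 member was lower, Psmd5, against a background of 5.56%, and at 48 h 2 were lower, Psma1 and Psma5, against 6.7%. These comparisons share the 0 h arrays. None passed limma's test for 12 h against 4 h, 24 h against 12 h or 48 h against 24 h. The backgrounds were 0.295%, 0.0884% and 0.626%. Of the 71 members 8 had an unadjusted limma p under 0.05 at 48 h against 24 h. That share was near the 11.4% of all probe sets tested. In these bulk samples fewer cells of a type and less RNA per cell cannot be told apart.

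Of the called genes Psmd5, lower only at 24 h, was searched but its upstream region is not shown. Psma1 and Psma5 were called lower at 48 h. Psmg3 was called by the F-test, and it was higher at 24 h and 48 h in single comparisons that missed the threshold. The regions upstream of Psma1, Psma5 and Psmg3 are shown. Each is the 250 bases before the annotated start in RefSeq's GRCm38.p6, written 5′ to 3′ on the gene's strand, with matches to the CCAAT box on either strand (CCAAT or ATTGG) in capitals.
Psma1 (chr7:114276117-114276366, minus strand): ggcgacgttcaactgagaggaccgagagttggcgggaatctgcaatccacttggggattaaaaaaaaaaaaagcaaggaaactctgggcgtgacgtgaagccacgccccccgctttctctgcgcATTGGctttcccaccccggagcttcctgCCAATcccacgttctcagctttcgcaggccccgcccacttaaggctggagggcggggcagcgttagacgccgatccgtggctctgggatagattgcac
Psma5 (chr3:108256676-108256925, plus strand): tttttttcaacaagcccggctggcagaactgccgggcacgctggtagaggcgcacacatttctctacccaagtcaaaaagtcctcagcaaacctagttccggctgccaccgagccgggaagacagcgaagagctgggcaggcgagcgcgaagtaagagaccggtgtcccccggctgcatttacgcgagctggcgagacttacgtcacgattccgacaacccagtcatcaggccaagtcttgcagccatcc
Psmg3 (chr5:139826895-139827144, minus strand): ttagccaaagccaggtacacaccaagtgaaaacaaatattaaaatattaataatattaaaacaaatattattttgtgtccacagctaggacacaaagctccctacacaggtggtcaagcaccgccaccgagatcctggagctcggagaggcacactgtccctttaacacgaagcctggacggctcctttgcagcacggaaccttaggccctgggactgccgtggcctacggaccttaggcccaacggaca
The Psma1 window held a pair of CCAAT boxes. ATTGG, 126 bases upstream, is a box on the strand opposite the gene's, and CCAAT, 98 bases upstream, lies on the gene's own strand. The windows of Psma5, Psmg3 and Psmd5 held none. The other motif searched, on both strands, was the core of the antioxidant response element, TGACNNNGC, bound by the factors of Nfe2l1 and Nfe2l2, and the windows of the 4 genes held no match to it. Of the 49 member genes 41 had a window, and 5 of these (12.2%), Psmb5, Psmb6, Psmc6, Psmd9 and Psmd12, held the element, as did 11.5% of all genes in the table. A CCAAT box stood in 16 of the 41 (39.0%) and in 37.5% of all genes, so both shares lay near those of all genes. A match is a run of letters and not a measured site.

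Among the alpha ring genes Psma1 and Psma5 fell at 48 h, and all 7 tested genes had negative changes. Psma1 (probe set 1415695_at) read 2523, 2711 and 2858 at 0 h, 2453, 2371 and 2786 at 4 h, 2477, 2358 and 2649.9 at 12 h, 2218, 2180.3 and 2307 at 24 h, and 2006, 1781 and 1975.5 at 48 h on the A arrays. The 3 values at 48 h were the lowest of all 15 and did not overlap those at 24 h or 0 h. The means were 1921 ± 122 at 48 h and 2698 ± 168 at 0 h, a log2 change of -0.49 ± 0.10 with a limma adjusted p of 0.00878. This call held in all 25 alternative settings, with limma adjusted p-values of 0.00348 to 0.0466, while that of the F-test (0.0345) was lost in 11 of 24. At 24 h the change was -0.27 ± 0.10 (limma adjusted p 0.159), also with no overlap with 0 h. The same probe set is on the B type, where it read 8321, 7352.5 and 7695 at 48 h and 9654, 8224 and 9993 at 0 h. That change was -0.25 ± 0.18 (limma adjusted p 0.717), with a 95% interval of -0.62 to 0.12 that holds both 0 and the A array value, and one 48 h array overlapped the 0 h range. Whether the A and B arrays shared RNA is not in the labels.

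Psma5 is covered by a pair of bright probe sets. The first, 1424681_a_at, read 4325, 3692 and 3929 at 0 h, 4048, 3183 and 3499.5 at 4 h, 3478, 3346 and 3057 at 12 h, 2929, 3344 and 2926 at 24 h, and 2793, 3085 and 2515 at 48 h. Each value at 12, 24 and 48 h lay below all 3 at 0 h. The means were 2798 ± 285 at 48 h and 3982 ± 319.9 at 0 h, and the change of -0.51 ± 0.12 passed limma's test with an adjusted p of 0.0142. The second, 1434356_a_at, read 3302, 2289 and 3212 at 48 h and 2999.6, 3567 and 4476 at 0 h, with overlapping groups and a change of -0.33 ± 0.16 that did not pass (limma adjusted p 0.273). The call of the first was lost without 0 h replicate 1, 48 h replicate 1 or 48 h replicate 3, with limma adjusted p-values of 0.0783, 0.0506 and 0.069. Both probe sets gave a negative change, and the F-test of the first missed the threshold (limma adjusted p 0.0599).

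The other alpha genes did not pass the test. Taking each gene's brightest probe set, the 7 changes at 48 h had a median of -0.28 and ran from -0.49 for Psma1 to -0.15 for Psma3. Psma4 read 5462, 5025 and 5935 at 48 h and 6569, 7403.5 and 6249 at 0 h, with no overlap, and changed by -0.30 ± 0.11 (limma adjusted p 0.128). Its change at 24 h was -0.35 ± 0.11 (limma adjusted p 0.0776). Of the 11 alpha probe sets 6 had all 48 h values below all 0 h values, 1 each of Psma1, Psma3, Psma4, Psma5, Psma6 and Psma7, and none had all above. Across all members this held for 14 of 71 (19.7%), and across all probe sets tested for 10.5%. The median of the 11 alpha probe sets on each array, as a deviation from the 0 h mean, was -0.25, -0.34 and -0.32 at 48 h and -0.03, -0.03 and 0.08 at 0 h. The 48 h arrays thus lay below the 0 h arrays, and the plot of subgroup medians on each array shows the means of the times in between falling between them. Psma8, the alpha subunit of the testis, lay below the filter, with a mean intensity of 16.2.

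**Figure D1:**
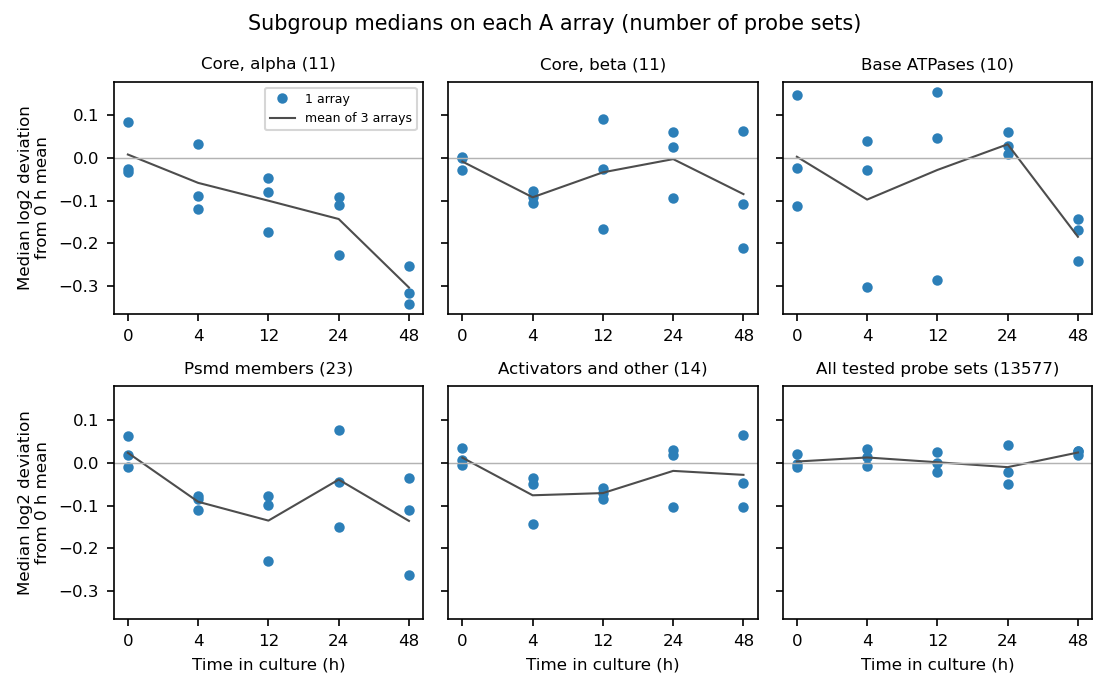
Median log2 deviation from the 0 h mean on each A array (vertical axis, log2 units) against time in culture in hours (horizontal axis, equally spaced), for 5 subgroups of proteasome probe sets and for all 13577 probe sets tested. Points are single arrays and lines join the means of 3 arrays; the alpha ring lies between -0.34 and -0.25 at 48 h, and the numbers in brackets are probe sets.

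No beta ring gene passed the test at any time. The subunits with the peptidase sites of the standard proteasome are Psmb5, Psmb6 and Psmb7. Psmb5 read 4577, 4748 and 4666 at 0 h, 4420, 4041 and 4329 at 4 h, 5132, 5141 and 4156 at 12 h, 4674, 5026 and 4536 at 24 h, and 4369, 5242 and 3802 at 48 h. The 48 h and 0 h values overlapped, the means were 4471 ± 725 at 48 h and 4664 ± 85.7 at 0 h, and the change of -0.07 ± 0.12 had a 95% interval of -0.32 to 0.18 (limma adjusted p 0.788). Psmb6 read 3648, 3924 and 3001 at 48 h and 3835, 3921 and 3834 at 0 h, a change of -0.14 ± 0.11 with an interval of -0.38 to 0.10. Psmb7, the brightest member on the A type, read 10033.5, 11239 and 8675 at 48 h and 10872.5, 10511 and 10116 at 0 h, a change of -0.08 ± 0.10 with an interval of -0.30 to 0.14. In each of the 3 genes the 48 h values spread to both sides of the 0 h mean. On the B arrays the probe set of Psmb5 read 16997, 17034 and 14413 at 48 h and 14496, 14825 and 16476 at 0 h, a change of 0.08 ± 0.13 (limma adjusted p 0.907).

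The beta genes on their brightest probe sets changed by -0.14 to 0.01 at 48 h, with 7 of 8 negative and a median of -0.08. On the log2 scale the 95% interval lay within 0.5 of 0 for 9 of 11 beta probe sets (81.8%). It did so for 4 of 11 alpha probe sets (36.4%), 62.0% of all 71 members and 33.9% of all probe sets tested. These sets differed in brightness, with median mean intensities of 3412, 3523, 1892 and 458 in that order. The part of brightness in the contrast with all probe sets was not tested. No beta probe set had all 48 h values below all 0 h values. The alpha and beta medians of probe sets at 48 h, -0.26 and -0.09, are set side by side, and the difference between the rings was not tested. Single arrays moved the beta value, to -0.18 without 48 h replicate 2 and -0.03 without 48 h replicate 3. Of all probe sets tested 47.5% had a negative change at 48 h, with a median of 0.02, and of those with a mean of at least 1000 it was 59.8%, with a median of -0.06.

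The subunits that interferon induces, which replace the standard peptidase subunits in the immunoproteasome of immune and inflamed cells, were dim. Psmb8 read 7.8, 5.6 and 5.2 at 48 h and 11.9, 33.4 and 11.1 at 0 h on A arrays. Psmb9 read 40.8, 11.4 and 9.4 at 48 h and 15.3, 32.4 and 10.3 at 0 h. Both lay below the filter intensity on every array, and the B array probe set of Psmb8 did too, with a mean of 34.6 over its 15 arrays. The files hold no detection calls, so these values show only that the signal was low. Psmb10, the third of these subunits, was tested and read 353, 337 and 289 at 48 h and 295.5, 259.7 and 439 at 0 h. It had the highest change of the core genes, 0.01 ± 0.21 (limma adjusted p 0.989), with overlapping groups. Psmb11, the beta subunit of the thymus, is on the B type only, where it read 468, 106 and 81 at 48 h and 113, 247 and 278 at 0 h. One 48 h array stood above and the others below the 0 h range, and the change was -0.27 ± 0.70 (limma adjusted p 0.951).

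**Figure D2:**
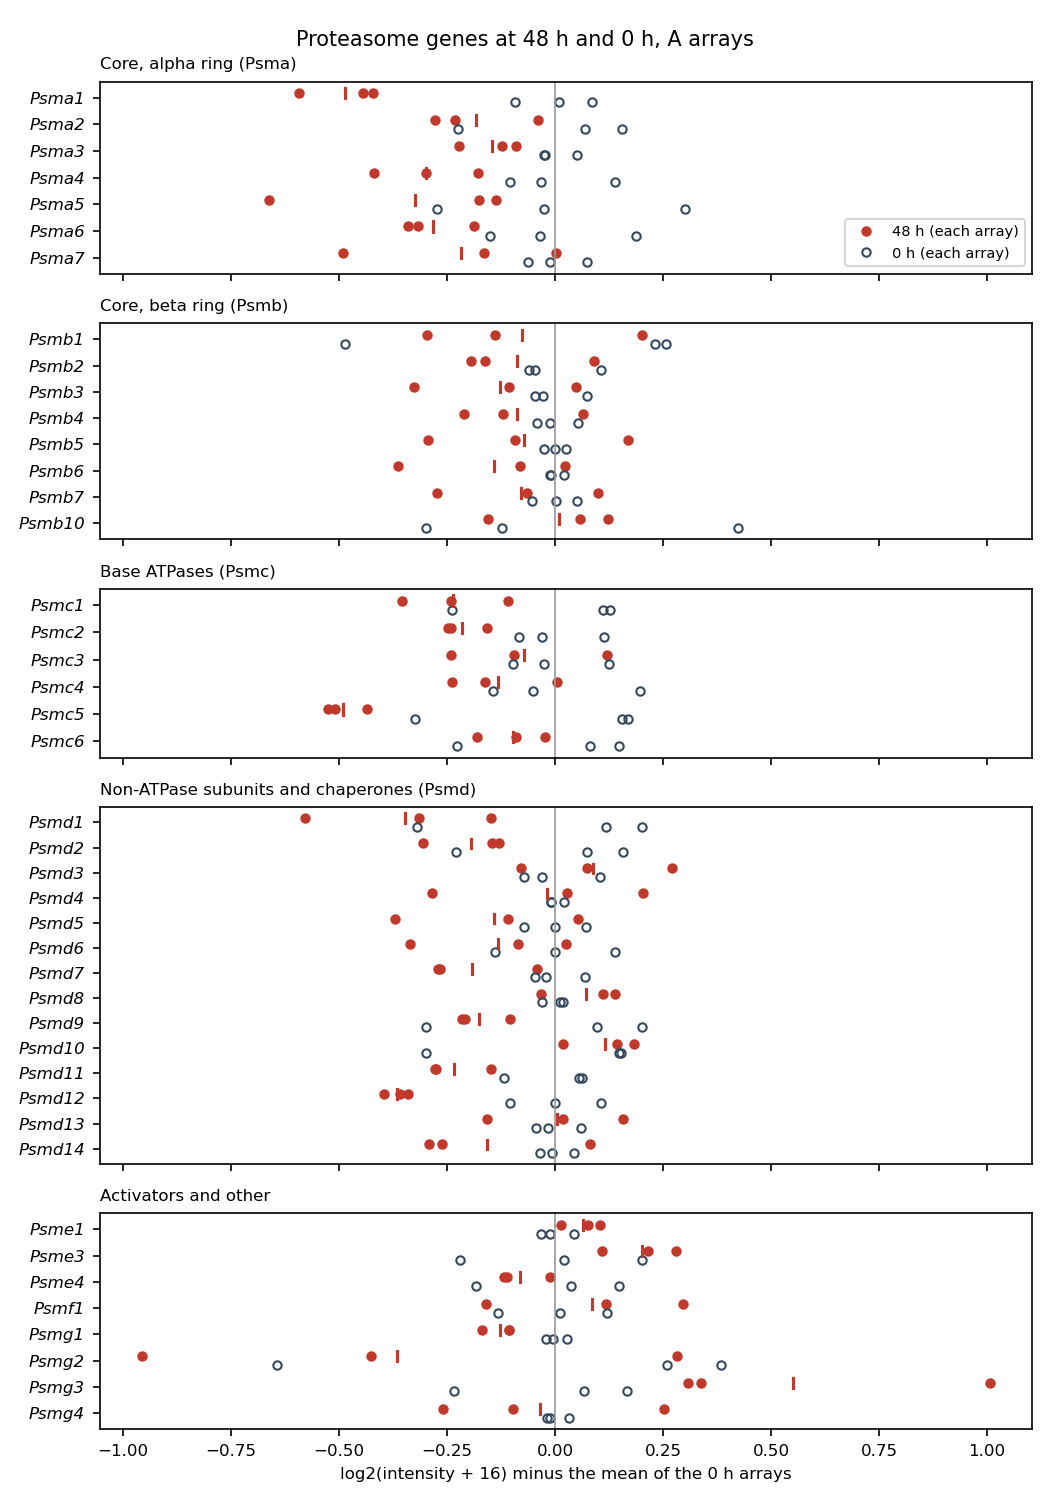
log2(intensity + 16) minus the mean of the 0 h arrays (horizontal axis, log2 units) for each proteasome gene tested on the A arrays (rows), with the brightest probe set where a gene has several. Filled points are the 3 arrays at 48 h with their mean as a bar, and open points are the 3 arrays at 0 h; the filled points of Psma1, Psmc5 and Psmd12 lie left of all their open points, and those of Psmg3 lie right of them.

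In the regulatory particle 1 gene passed the test, Psmd5, and only at 24 h. Psmd5 encodes a chaperone that binds a base ATPase during assembly and is absent from the finished particle. It read 2049.9, 2155 and 2265 at 0 h, 1862, 2062 and 1949 at 4 h, 1948, 1655 and 1732 at 12 h, 1500.1, 1599.7 and 1711 at 24 h, and 1996, 2237 and 1664 at 48 h. The 24 h values lay below all 0 h values, while those at 48 h overlapped them. The means were 1604 ± 106 at 24 h and 2157 ± 108 at 0 h, a change of -0.42 ± 0.12 with a limma adjusted p of 0.0484, near the threshold. The call was lost in 18 of 25 alternative settings, among them 13 of the 15 that left out 1 array, with limma adjusted p-values of 0.0124 to 0.178 over all 25. At 48 h the change was -0.14 ± 0.12 (limma adjusted p 0.56), and between 24 and 48 h it was 0.28 ± 0.12 (limma adjusted p 0.368).

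The largest falls of this particle at 48 h, by each gene's brightest probe set, were those of Psmc5 and Psmd12, and neither passed. Psmd12, a scaffold subunit of the lid, read 2120.3, 2040.3 and 2094 at 48 h and 2895, 2501 and 2689.9 at 0 h, with no overlap. Its means were 2085 ± 40.7 at 48 h and 2695 ± 197 at 0 h, a change of -0.37 ± 0.11 with a limma adjusted p of 0.0522. Psmc5, an ATPase of the base, read 2206, 2069.5 and 2095 at 48 h and 2384, 3330.2 and 3363 at 0 h, with no overlap and a wide 0 h group. Its change was -0.49 ± 0.19 (limma adjusted p 0.145). The same probe set on the B arrays read 8193, 9421 and 8135 at 48 h and 8722, 10207 and 8411 at 0 h, which overlapped, with a change of -0.08 ± 0.16 (limma adjusted p 0.931).

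Psmd11, another lid scaffold subunit, had 5 tested probe sets on the A arrays, of which 3 had all 48 h values below all 0 h values. The changes of the 5 ran from -0.34 to -0.04, and none passed the test. Both probe sets of Psmc2, an ATPase, also had all 48 h values below all 0 h values, with changes of -0.22 and -0.18. This held for 7 of 33 probe sets of the regulatory particle (21.2%) and for 10.5% of all probe sets tested. Probe sets of 1 gene were read on the same arrays, so they are not independent. At the other end were Psmd10, an assembly chaperone also known as gankyrin, and Psmd3, a lid subunit. Psmd10 read 577, 514 and 562 at 48 h and 566, 409 and 563 at 0 h, a change of 0.12 ± 0.21, and Psmd3 read 1801, 2067 and 1619 at 48 h and 1839.6, 1626 and 1675 at 0 h, a change of 0.09 ± 0.11. Both overlapped, with limma adjusted p-values of 0.809 and 0.726. The median change at 48 h was -0.16 over 10 Psmc probe sets and -0.13 over 23 Psmd probe sets, with 8 and 17 of them negative. Without 48 h replicate 3 the Psmd median was -0.04.

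Among the activators, inhibitor and chaperones only Psmg3 passed a test. Psmg3 encodes a chaperone that pairs with the Psmg4 protein in building the alpha ring. It read 671, 626 and 504 at 0 h, 493, 548 and 532 at 4 h, 753, 746 and 612 at 12 h, 734.5, 987 and 894.5 at 24 h, and 742, 1213.5 and 758 at 48 h. All 24 h and 48 h values lay above all 0 h values, the mean was lowest at 4 h, and 1 array at 48 h stood well above the other two. Limma's F-test gave an adjusted p of 0.0384, while the single comparisons with 0 h missed the threshold, and this call was lost in 11 of 24 alternative settings. The means were 904 ± 268 at 48 h and 600.5 ± 86.3 at 0 h, a change of 0.55 ± 0.18 with a limma adjusted p of 0.0784, and the change at 24 h was 0.53 ± 0.18 (limma adjusted p 0.101). Its probe set on the B type lay below the filter.

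The other chaperones and the activators did not pass. Psmg1, whose protein pairs with that of Psmg2, read 1149, 1150.2 and 1100.2 at 48 h and 1234, 1263 and 1221 at 0 h, which did not overlap, with a change of -0.13 ± 0.10 (limma adjusted p 0.536). Psmg2 read 936, 643 and 1540 at 48 h and 803, 1514 and 1654 at 0 h with a wide spread at both times and a change of -0.37 ± 0.26 (limma adjusted p 0.475). Psme1, a subunit of the interferon-inducible activator, read 841, 808 and 797 at 0 h, 909, 1139 and 956 at 4 h, 1077, 1120.3 and 1124 at 12 h, 942, 723 and 1076 at 24 h, and 876.5, 860.5 and 823 at 48 h. Its 4 h and 12 h values lay above all 0 h values and its 48 h values overlapped them, with changes of 0.43 ± 0.14 at 12 h (limma adjusted p 0.181) and 0.06 ± 0.14 at 48 h. Psme3, the nuclear activator, read 902, 1017 and 972.5 at 48 h and 847, 714.5 and 962 at 0 h on its brighter probe set, a change of 0.20 ± 0.13 (limma adjusted p 0.409). The dimmer tested probe set of the gene had -0.10 ± 0.17. The 14 probe sets of these genes had a median change of 0.01 at 48 h, with 7 negative.

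**Figure D3:**
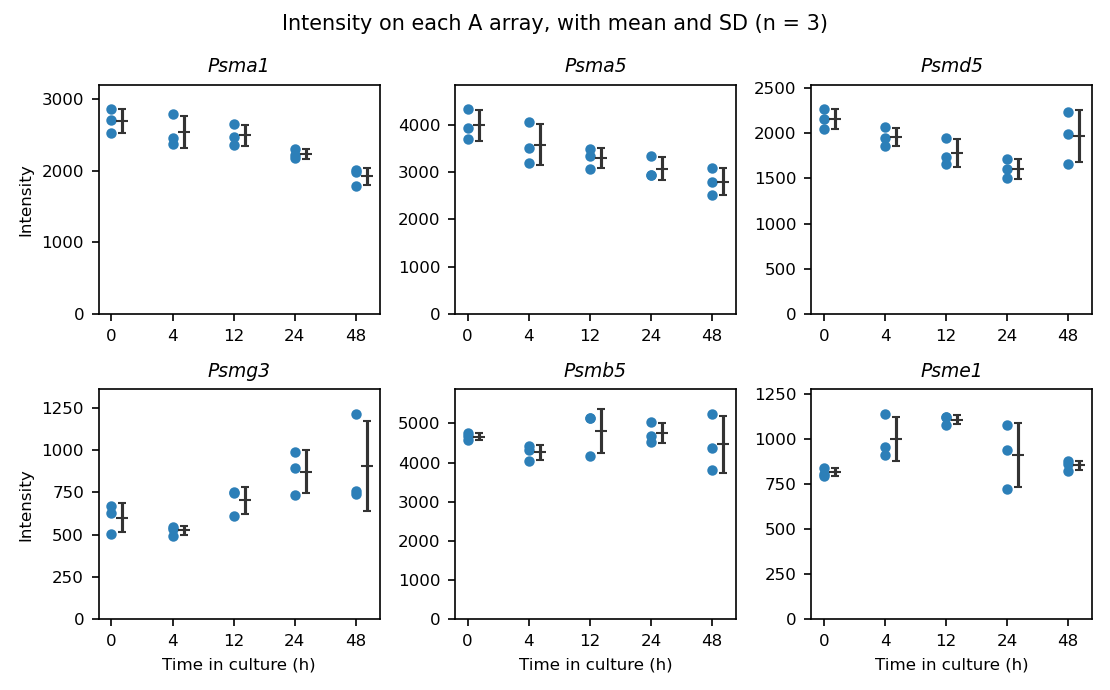
Intensity (vertical axis, linear, from 0) against time in culture in hours (horizontal axis, equally spaced) on each A array for Psma1, Psma5 (probe set 1424681_a_at), Psmd5, Psmg3, Psmb5 and Psme1. Points are single arrays and bars the mean ± SD of 3; Psma1 averages 1921 at 48 h and 2698 at 0 h, and Psmb5 shows no such step.

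Of 18 genes with several tested probe sets on the A arrays, 13 had the same sign of change at 48 h on all of them. The exceptions were Psmb1, Psmc6, Psmd4, Psme3 and Psme4. Over all 71 members the changes at 48 h ran from -0.52, a second probe set of Psmc4, to 0.55 for Psmg3, with a median of -0.11 and 53 negative. At 48 h 11 of the 71 had an unadjusted limma p under 0.05, a smaller share than the 19.7% of all probe sets tested. Of these 11, 10 were lower, a larger share of the 71 than the 8.9% of all probe sets tested. The members' medians were -0.08 at 4 h, -0.09 at 12 h and -0.06 at 24 h, and those of all probe sets tested 0.01, 0.00 and -0.01. The 24 h value moved with single arrays, and the members' median was -0.01 and that of all probe sets -0.04 without 24 h replicate 3, and they were both -0.02 without 0 h replicate 3. The 14 A array probe sets below the filter were those of Psma8, Psmb8 and Psmb9, and second or further probe sets of Psma1, Psma5, Psma6, Psmb1, Psmc1, Psmd7, Psmd11, Psme3 and Psmf1, some of these genes with more than one.

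On the B arrays none of 13 members passed limma's F-test or a comparison with 0 h, with backgrounds of 1.02% over time, 0% at 4 h, 0.074% at 12 h, 0.97% at 24 h and 0.933% at 48 h. At 48 h 1 had an unadjusted p under 0.05, against 10.3% of all probe sets tested, Psmc3ip, which is no subunit (-0.42 ± 0.19, limma adjusted p 0.448). The B members had a median change of -0.14 at 48 h, with 8 of 13 negative, against -0.02 for all 13506 probe sets tested. The alpha ring's 3 probe sets there, a pair for Psma1 and 1 for Psma3, changed by -0.28 to -0.23. The dimmer ones scattered widely: the Psma3 probe set read 162, 104 and 589 at 24 h and 348, 547 and 814 at 0 h, a change of -1.24 ± 0.60 (limma adjusted p 0.5). By the brightest probe sets, Psmc2 changed by -0.14 ± 0.24 at 48 h, Psmd2 by 0.13 ± 0.40, Psmd13 by 0.07 ± 0.17, Psme4 by 0.13 ± 0.32 and Psmg2 by 0.10 ± 0.19, each with overlapping arrays.

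Of 100 other genes of the ubiquitin system in 6 lists, 68 could be tested with A arrays and 26 with B arrays, each by its brightest probe set. On the A type none passed limma's test at 4 h, 1 was higher at 12 h, 2 were higher and 3 lower at 24 h, and 2 were higher and 2 lower at 48 h, against the backgrounds of 0.0295%, 0.368%, 5.56% and 6.7% given above. With 1 array left out at a time these counts were 0 to 1 at 12 h, 2 to 6 at 24 h and 2 to 5 at 48 h, with 2 at 48 h without 48 h replicate 1. None passed on the B type.

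Ube2g2, a ubiquitin-conjugating enzyme of the pathway that clears misfolded proteins from the endoplasmic reticulum, showed the largest change of these lists. It read 929.8, 986 and 793 at 0 h, 883, 926 and 979 at 4 h, 1549, 1579 and 1228 at 12 h, 1931.5, 1953.5 and 1625 at 24 h, and 1889, 1907 and 1939.5 at 48 h. The values from 12 h on lay above all at 0 h and 4 h, and the means were 1912 ± 25.7 at 48 h and 903 ± 99 at 0 h. The changes were 0.67 ± 0.13 at 12 h, 1.01 ± 0.13 at 24 h and 1.07 ± 0.13 at 48 h, with limma adjusted p-values of 0.034, 2.16e-04 and 4.78e-05. Its dimmer probe set also rose at 48 h, by 0.78 (limma adjusted p 0.0274). Ube2r2, another conjugating enzyme, read 578, 861 and 778 at 24 h and 453, 388 and 483 at 0 h, a rise of 0.71 ± 0.19 (limma adjusted p 0.0346), and 439.8, 356 and 509.7 at 48 h. The same probe set on the B arrays changed by 0.18 ± 0.15 at 24 h (limma adjusted p 0.78).

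Among the partners of the proteasome Vcp fell, the ATPase that extracts ubiquitin-marked proteins and hands them on. It read 5244, 5419 and 5396 at 48 h and 6693, 7687 and 6712 at 0 h, with no overlap and a change of -0.39 ± 0.11 (limma adjusted p 0.0472). Usp14, a deubiquitinase of the regulatory particle, read 1031, 772 and 1399.5 at 48 h and 1704, 1292 and 1662 at 0 h, a change of -0.56 ± 0.21 that did not pass (limma adjusted p 0.138). Dimmer tested probe sets of Usp14 changed by only -0.08 and 0.03 at 48 h (limma adjusted p 0.793 and 0.933). Zfand5, an activator of the proteasome in wasting muscle, had a probe set that fell at 48 h by 0.40 (limma adjusted p 0.0451), while its brightest changed by -0.16 (limma adjusted p 0.579).

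Of 9 tested genes in the list of transcriptional regulators of the proteasome 1 passed, Nfe2l2, and only at 24 h. The list also holds Keap1 and Ngly1, which are not themselves factors that switch on proteasome genes. Nfe2l2, the factor of the oxidative stress response, read 1786, 2049 and 2132 at 0 h, 2315, 2286 and 2410 at 4 h, 1883, 1631 and 1853 at 12 h, 1479, 1460.2 and 1437 at 24 h, and 2081, 1973 and 1909.9 at 48 h. Its 24 h values were the lowest, below all at 0 h, with a change of -0.44 ± 0.11 (limma adjusted p 0.0206), and at 48 h the change was 0.00 ± 0.11. Nfe2l1, the factor that restores proteasome synthesis when the enzyme is inhibited, read 1759, 1753 and 1868 at 48 h and 1559, 1161 and 1133 at 0 h. The groups did not overlap, and the change of 0.49 ± 0.14 just missed the threshold (limma adjusted p 0.0508). Nfyc, a subunit of the factor that binds CCAAT boxes, changed by -0.44 ± 0.14 (limma adjusted p 0.0801). No test of the link between these factors and the subunit genes was made.

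Of the muscle ubiquitin ligases, Fbxo32, the ligase of muscle wasting also known as atrogin-1, read 524, 409 and 410.1 at 0 h, 548, 395 and 481 at 4 h, 249.5, 320.4 and 304 at 12 h, 198, 353 and 225 at 24 h, and 423.5, 266 and 244.5 at 48 h on the A arrays. The 24 h values lay below all 0 h values, with a change of -0.79 ± 0.22 (limma adjusted p 0.0468), and the change at 48 h, -0.53 ± 0.22, did not pass. Its other A probe set changed by -0.44 at 24 h (limma adjusted p 0.203), and its B array probe set by -0.06 ± 0.18 (limma adjusted p 0.951). Trim63, the ligase MuRF1 of muscle wasting, was measured on the B type, where it read 3614.5, 2739 and 2163 at 48 h and 1175.5, 1492 and 1876 at 0 h. The groups did not overlap and the change of 0.89 ± 0.34 did not pass (limma adjusted p 0.333). Mul1, a mitochondrial ligase, changed by 0.34 ± 0.17 at 48 h on the A arrays (limma adjusted p 0.287). Its dimmer A probe set changed by 0.01 (limma adjusted p 0.988).

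In the list of interferon response and antigen processing 11 of 21 genes on the A type lay below the filter, among them Tap1 and Tap2, the peptide transporter. Tapbp, the chaperone that loads peptides from the proteasome onto class I molecules, read 514, 561 and 489 at 0 h, 504, 531 and 564 at 4 h, 482, 508 and 448 at 12 h, 276, 236 and 377 at 24 h, and 297, 298 and 255 at 48 h. The 24 h and 48 h values lay below all at earlier times, with changes of -0.80 ± 0.15 and -0.84 ± 0.15 (limma adjusted p 0.0046 and 0.00232). The dimmer Tapbp probe set changed by -0.47 at 48 h and did not pass (limma adjusted p 0.18). Irgm1, an interferon-inducible GTPase, read 544, 396 and 531 at 48 h and 259, 270 and 273 at 0 h, with no overlap and a rise of 0.82 ± 0.18 (limma adjusted p 0.00928). B2m, the light chain of class I molecules, had a dimmer probe set that fell by 0.49 at 24 h and 0.56 at 48 h (limma adjusted p 0.0291 and 0.012), while its brightest changed by -0.41 ± 0.20 at 48 h (limma adjusted p 0.271). The median change of the 10 tested genes of this list at 48 h was 0.12.

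**Figure D4:**
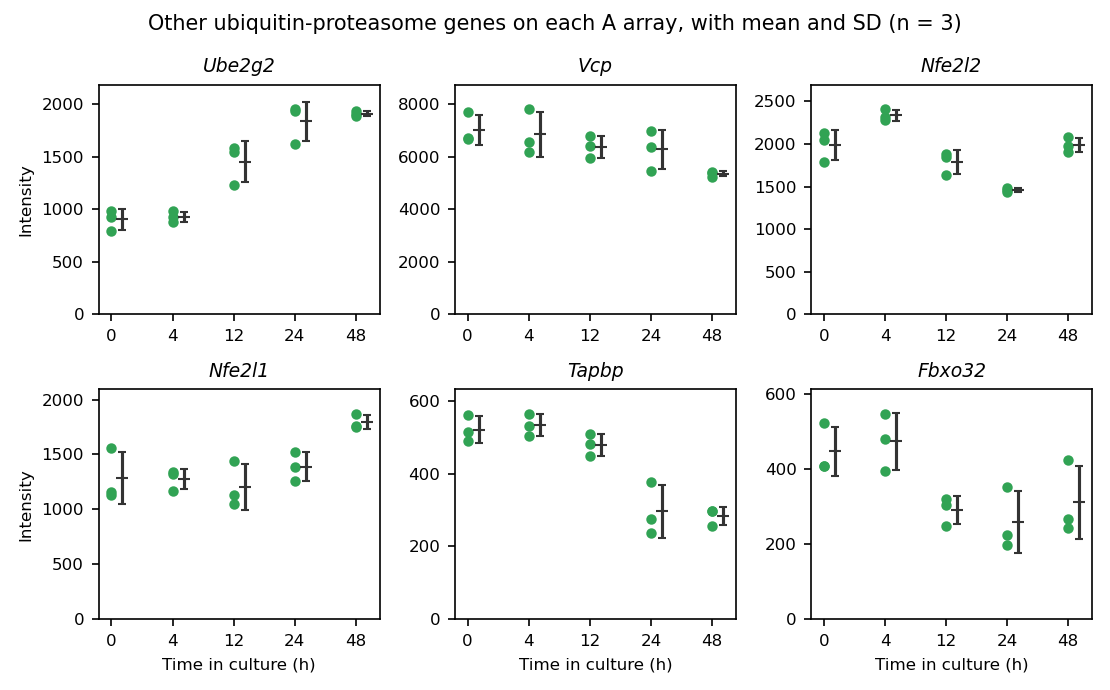
Intensity (vertical axis, linear, from 0) against time in culture in hours (horizontal axis, equally spaced) on each A array for Ube2g2, Vcp, Nfe2l2, Nfe2l1, Tapbp and Fbxo32. Points are single arrays and bars the mean ± SD of 3; Ube2g2 averages 1912 at 48 h and 903 at 0 h, and Nfe2l2 dips at 24 h.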

How the data were processed

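Total RNA of cultured mouse extraocular muscle was hybridised to Affymetrix A and B arrays by the maker's standard protocol, per the labels. What the authors deposited is 1 linear intensity for each probe set and array, scaled already: trimmed by 2% at each end, every A array averaged 500.2 and every B array 500.1. Column medians were 154.7 to 181.5 on the A and 272.8 to 297.7 on the B arrays. Precision is limited by the 3 arrays per time. The software, the background correction and the genome build were not given in the sources used here. A and B arrays were fitted apart, and no test set the levels of different probe sets against each other. Levels were used to filter, to pick a gene's brightest probe set, to describe probe sets as bright or dim and to sum markers.

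Symbols came from the platform annotation supplied with the data, updated through Entrez identifiers. A single symbol stood on 20393 A and 14674 B probe sets, several on 691 and 245, and none on 1606 and 7656. The log2 of intensity + 16 was fitted with 1 mean per time to the 15 arrays of a type (limma 3.58.1, R 4.3.3, eBayes with an intensity trend, 10 residual degrees of freedom). The filter dropped the 64 controls of each type and all below the 40th percentile of mean intensity, which kept 13577 A and 13506 B probe sets. Two-sided p-values were adjusted for each comparison by Benjamini-Hochberg, and 0.05 was the threshold. The fit was tested on simulated data. Contrasts were the 4 later times against 0 h, and 12, 24 and 48 h against the time before.

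Named were members past a threshold, the 2 genes of each subgroup with the largest rise and fall at 48 h, the immunoproteasome genes with their standard counterparts, and in each pathway list the called genes and the 2 with the largest statistic. A gene stands for its brightest probe set unless said otherwise. The members, the lists and the markers were chosen with earlier results of these data known. Psma4, Psma8, Psmc2, Psmd11, Psma3 on the B type, Psmc3ip, Laptm5, Trim63, Zfand5 and B2m were named after their values were seen. Same-numbered arrays of different times did not deviate together in the median (correlation -0.00 on the A and B types), so the numbers were not taken as pairs. Single A pairs ran from -0.36 to 0.42, and 10 of 30 were over 0.1, against 14 of 60 pairs of different numbers. For the B type these counts were 1 of 30 and 2 of 60. Promoter windows are RefSeq's, of GRCm38.p6, matched by symbol. The alternatives tried were median scaling, quantile normalization, pseudocounts of 1 and 64, other filters, the replicate block, no intensity trend, array weights, only the times compared, 1 probe set per gene, leaving out the members that are no subunits, and dropping single arrays. Plots used matplotlib 3.10.9.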

Additional observations from a re-analysis of the deposited data

How the results depend on the processing

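Of 630 recomputed counts, for 24 counts of called genes, 562 stayed within 1.5 times the reported value and 68 did not. Most of the 24 were reported as 0, all those on the B arrays among them, and nearly always stayed 0. The 562 therefore say little about the calls. Of the 15 fits without 1 A array, the count of members moved in 11 over time, 14 at 24 h and 3 at 48 h. That of pathway genes on the A arrays moved in 8 at 12 h, 6 at 24 h and 1 at 48 h. For members over time on the A arrays (2 reported) the count was 1 with quantile normalization, with median scaling and with no filter, 0 with no intensity trend and 20 with array weights, under which 32.1% of all probe sets tested passed, and 0 to 2 with 1 array left out. At 24 h (1 reported) it was 0 with median scaling, with no filter, with the replicate block, with no intensity trend and with only the times compared, 4 with array weights (11.3% of all probe sets tested), and 0 to 2 with 1 array left out. At 48 h (2 reported) it was 8 with array weights (17.6% of all probe sets tested), 1 with 1 probe set per gene, where the brighter Psma5 probe set is counted, and 1 to 3 with 1 array left out. Array weights also gave 2 members at 12 h against 4 h and 11 at 48 h against 24 h (0 reported for both; 4.27% and 9.91% of all probe sets tested). The replicate number as a block changed no other member or pathway count by over 1.5 times.

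For pathway genes on the A arrays the count at 12 h (1 reported) was 0 with median scaling, with no filter, with no intensity trend and with only the times compared, 2 with array weights, and 0 to 1 with 1 array left out. At 24 h (5 reported) it was 2 with median scaling, 3 with no filter and with only the times compared, and 2 to 6 with 1 array left out. At 48 h (4 reported) it was 12 with array weights and 2 to 5 with 1 array left out. On the B arrays the count at 24 h (0 reported) was 0 to 1 with 1 array left out. The cause of these moves was not tested, except that fewer arrays were fitted where arrays were left out.

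The members' median change at 48 h (-0.11 reported) was negative in all 26 settings, the reported one included. It was -0.21 with median scaling, which moved the median of all probe sets tested as well, and -0.17 without 48 h replicate 2; at 12 h it was -0.15 with median scaling. At 24 h (-0.06 reported) it ran from -0.07 to -0.01, and minus the median of all probe sets tested from -0.06 to 0.02. The alpha ring's median at 48 h ran from -0.36 to -0.17 over the 26 settings the beta ring's from -0.19 to -0.03, that of the Psmc genes from -0.26 to -0.11 and that of the Psmd genes from -0.24 to -0.04, while that of the activators, inhibitor and chaperones was negative in 7 of them.

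With 3 arrays per time the median SE was 0.18 for A array changes and 0.27 for B array changes, and Psmb8 and Psmb9 lay below the filter, so their course was not measured.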
